A study of Mus musculus with 2 samples.

Results

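The laminins, nidogens and basement membrane proteoglycans of mouse liver non-parenchymal cells were followed here through 10 genes: the laminin alpha chains Lama2, Lama4 and Lama5, the beta chains Lamb1 and Lamb2, the gamma chain Lamc1, the nidogens Nid1 and Nid2, and the proteoglycans Hspg2 (perlecan) and Agrn (agrin). They were taken by name, and all 10 were listed in both libraries, which listed 20468 and 20473 genes and had 19219 in common. The series held 1 single-cell RNA library from each of 2 male C57BL/6 mice aged 8 weeks. The mouse labelled Q, for the quiescent state, received olive oil by intraperitoneal injection, and its library is called normal below. The mouse labelled F received CCl4, a liver toxin, at 15% in olive oil, 0.6 µl per gram of body weight with 2 injections a week for 6 weeks. Its cells were collected 48 h after the last injection, and its library is called fibrosis. Hepatocytes had been depleted by low-speed centrifugation after collagenase perfusion in both cases. With 1 library per condition there was no test between conditions, and what separates the libraries may separate these 2 mice alone.

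A basement membrane is a thin sheet of extracellular matrix beneath epithelia and endothelia and around some mesenchymal cells. Laminins, which are trimers of an alpha, a beta and a gamma chain, and collagen IV form its networks, and nidogens, perlecan and agrin bind these networks to each other and to cell surfaces. Healthy liver sinusoids lack a continuous basement membrane, whereas portal vessels, bile ducts and the mesothelium that covers the liver rest on one, and a sinusoidal sheet forms during fibrosis in a change called capillarization.

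In GRCm38, the build of the mm10 files, the laminin genes lie on chromosomes 10 (Lama2 at chr10:26980036-27619758 and Lama4 at chr10:38965515-39110188), 2 (Lama5 at chr2:180176373-180225859), 12 (Lamb1 at chr12:31265234-31329644), 9 (Lamb2 at chr9:108479736-108490530) and 1 (Lamc1 at chr1:153218922-153332786). Nid1 lies at chr13:13437551-13512269 and Nid2 at chr14:19751265-19811787, and both proteoglycan genes are on chromosome 4, Hspg2 at chr4:137468769-137570630 and Agrn at chr4:156165290-156197488.

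The bases upstream of 3 members are shown because these members were spread over the cell classes in different ways: Lamb1 was a gene of mesenchymal cells, Lamb2 was found across portal fibroblasts, mesothelium, endothelium and cholangiocytes, and Hspg2 was high throughout the endothelium. They come from the RefSeq promoter table for GRCm38.p6, in which 7 of the 10 members had an entry, and were trimmed to end before the first annotated start. Capitals mark GGGCGG on either strand, a GC box. Lamb1 lies at chr12:31265043-31265233, Lamb2 at chr9:108479612-108479735 and Hspg2 at chr4:137468553-137468768, all on the plus strand.
Lamb1: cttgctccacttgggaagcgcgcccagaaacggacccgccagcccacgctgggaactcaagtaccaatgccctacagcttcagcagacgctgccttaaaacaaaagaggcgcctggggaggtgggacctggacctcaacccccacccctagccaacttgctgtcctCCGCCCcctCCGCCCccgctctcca
Lamb2: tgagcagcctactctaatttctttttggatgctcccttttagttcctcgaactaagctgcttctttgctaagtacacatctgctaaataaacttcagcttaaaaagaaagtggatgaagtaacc
Hspg2: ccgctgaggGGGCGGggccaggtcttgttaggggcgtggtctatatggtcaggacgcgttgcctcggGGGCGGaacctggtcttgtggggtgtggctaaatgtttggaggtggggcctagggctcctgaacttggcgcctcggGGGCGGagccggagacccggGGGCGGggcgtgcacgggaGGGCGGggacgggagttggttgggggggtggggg
Hspg2 had 5 such matches in 216 bases, Lamb1 had 2 in 191 bases and Lamb2 had 0 in 124 bases. Among 32851 mouse promoters cut to the same lengths, 27.9%, 23.1% and 13.3% held at least 1. No TATAAA and no TGANTCA, the core of the AP-1 motif, was found on either strand in these 3 windows, against 9.80% and 5.99% of promoters at the length of Hspg2. A match describes the letters and is not a bound site.

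Cells were divided into classes by clustering each library without the 10 members or the 37 other basement membrane genes. Liver sinusoidal endothelial cells (LSEC) lie between the portal tract (zone 1) and the central vein (zone 3). The LSEC-like class held 1292 normal and 976 fibrosis cells, of which 230 and 271 were zone 1-like, 500 and 254 were zone 2/3-like, and the others had no zone name. Portal vessel-like endothelium held 403 and 233 cells and central vein-like endothelium 175 and 210. The HSC/MF-like class, hepatic stellate cells and the myofibroblasts made from them, held 59 and 121 cells. Portal fibroblast-like (PF-like) cells numbered 44 and 80, mesothelial-like cells 44 and 48, and cholangiocyte-like cells, the epithelium of bile ducts, 235 and 90. The names rest on marker lists: at least 9 of 14 PF markers, 5 of 7 zone 2/3 markers and all 15 HSC/MF markers were more than 2-fold over the other cells of their library in the classes so named. The fibrosis PF-like cells stood nearest to another class, with summed PF markers at 46.5 UMIs per 10000 UMIs and HSC/MF markers at 44.4, against 104 and 14.5 in the normal PF-like cells.

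The normal library held 44062632 UMIs in 8130 cells with a median of 4144.5 per cell, and the fibrosis library 53288463 UMIs in 6437 cells with a median of 5619. After filtering, 7471 and 6132 cells remained, and 15 cell barcodes occurred in both libraries. UMIs per cell were 1.24 to 2.04 times higher in the fibrosis library in the LSEC-like class, the 4 endothelial classes within or beside it, and the HSC/MF-like, PF-like, mesothelial-like and cholangiocyte-like classes. Levels are therefore given as UMIs of a gene per 10000 UMIs of the class, with exact 95% Poisson intervals in brackets, and ratios of fibrosis over normal with exact binomial intervals. These intervals cover counting error only. NK/T-cell-like cells, pooled with B-cell-like ones and called lymphoid, give 1 level that free RNA and any expression of their own add up to in cells not known for basement membranes, at 1620 and 846 cells with median depths of 3208 and 2543.5 UMIs. It is not the highest such level. Erythroid-like cells, at median depths of 2705.5 and 1078 UMIs, had Hspg2 at 3.79 in normal and 8.44 in fibrosis cells, Nid1 at 1.18 and 2.18, Lama4 at 0.910 and 0.751 and Lamc1 at 0.253 and 1.11, and fibrosis neutrophil-like cells had Hspg2 at 5.81 and Lamc1 at 0.938. How much of these values came from free RNA was not tested. Summed hepatocyte markers were higher in the normal library, at 109 against 10.3 UMIs per 10000 in LSEC-like cells, and their part in the results below was not tested. Levels are compared across classes for 1 gene at a time, since counts from the 3′ end do not rank different genes.

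Among the alpha chains, Lama4, the chain of endothelial basement membranes, was highest on the portal side of the endothelium in both libraries, and its level per 10000 UMIs in LSEC-like cells was lower in the fibrosis library. In normal cells it stood at 2.16 (1.93 to 2.40) UMIs per 10000 in zone 1-like and 2.05 (1.88 to 2.23) in portal vessel-like cells, at 0.982 (0.882 to 1.09) in zone 2/3-like cells and at 0.690 (0.546 to 0.860) in central vein-like cells. The zone 1-like and portal vessel-like intervals overlapped, and both lay above those of the other 2 classes. In fibrosis cells the same 4 classes stood at 1.12 (0.994 to 1.26), 1.38 (1.22 to 1.56), 0.588 (0.492 to 0.697) and 0.582 (0.482 to 0.696). Portal vessel-like over central vein-like, the ratio was 2.97 (2.34 to 3.81) in normal and 2.37 (1.91 to 2.97) in fibrosis cells, and zone 1-like over zone 2/3-like it was 2.19 (1.88 to 2.56) and 1.91 (1.55 to 2.37). The portal side thus remained higher in both libraries while the level itself, fibrosis over normal, was 0.520 (0.442 to 0.612) in zone 1-like, 0.598 (0.486 to 0.733) in zone 2/3-like and 0.675 (0.580 to 0.784) in portal vessel-like cells. In central vein-like cells the ratio was 0.843 (0.629 to 1.13), an interval that includes 1. With the mitochondrial limit set at 5% in place of 10%, the ratio was 0.928 in portal vessel-like, 0.922 in zone 2/3-like and 1.88 in central vein-like cells, so a level at least 1.5-fold lower was left in zone 1-like cells alone of the 4, at 0.530. Counted per cell, the ratio was 0.730 in zone 1-like, 0.742 in zone 2/3-like, 0.865 in portal vessel-like and 0.923 in LSEC-like cells, each within 1.5-fold. The lymphoid level of Lama4 was 0.205 in normal and 0.0904 in fibrosis cells, and the central vein-like levels and the fibrosis zone 2/3-like level lay under those of erythroid-like cells.

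**Figure D1:**
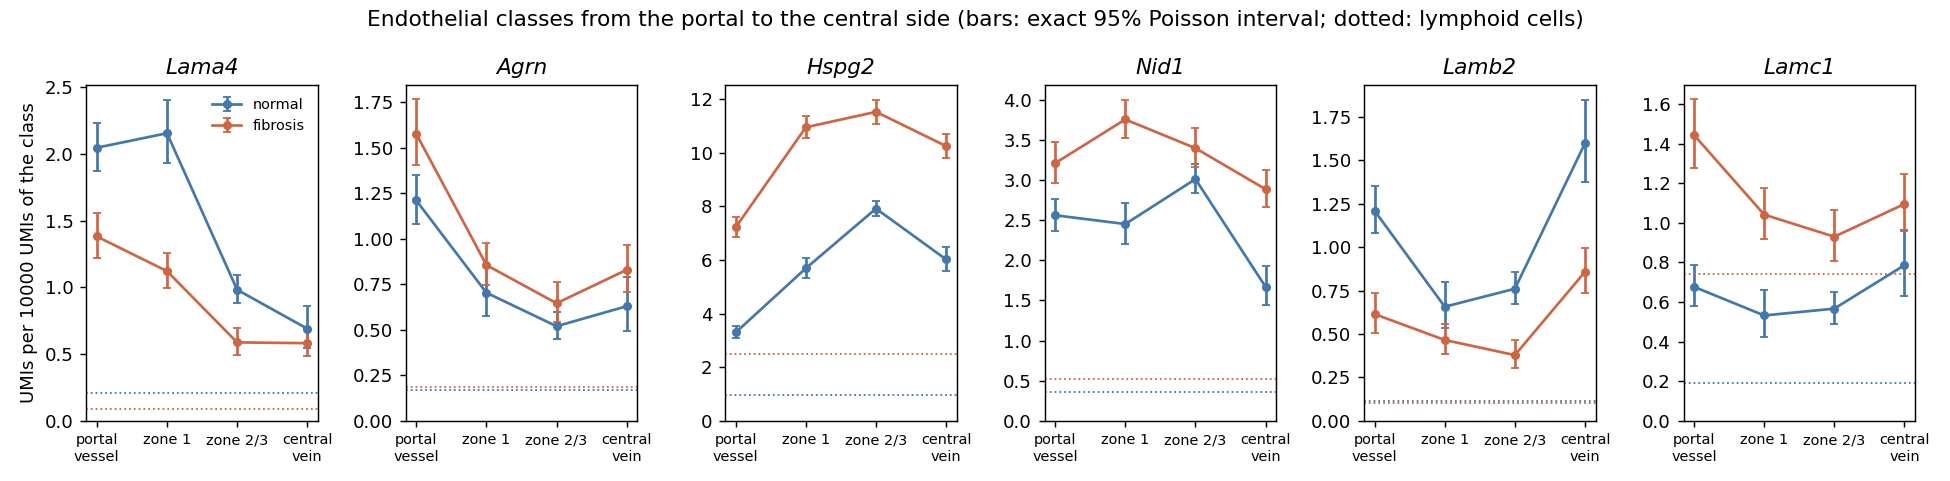
Levels of 6 members in UMIs per 10000 UMIs of the class (vertical axes) in the 4 endothelial classes from portal to central (horizontal axes) for the normal and fibrosis libraries, with points for the class level, bars for the exact 95% Poisson interval and dotted lines for the lymphoid level. Lama4 falls from 2.05 in normal portal vessel-like to 0.690 in normal central vein-like cells, whereas Hspg2 is lowest in portal vessel-like cells in both libraries.

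Outside the endothelium Lama4 was above its lymphoid level in normal PF-like cells and, in both libraries, in mesothelial-like and cholangiocyte-like cells. In PF-like cells it was 1.63 (1.24 to 2.11) in the normal and 0.159 (0.0987 to 0.244) in the fibrosis library, which is 0.0978 (0.0564 to 0.164) of the normal level. In this class 3 cells held 41.4% of the normal and 38.1% of the fibrosis Lama4 UMIs, and the PF and HSC/MF markers moved as given above. The part of these markers and cells in the Lama4 value was not tested. Mesothelial-like cells had 0.987 (0.743 to 1.28) and 0.537 (0.395 to 0.715), a difference that was gone with the 5% mitochondrial limit, and cholangiocyte-like cells 0.883 (0.782 to 0.994) and 0.866 (0.736 to 1.01), a ratio of 0.981 that fell to 0.253 with that limit. HSC/MF-like cells, at 0.0932 and 0.136, were at the lymphoid level in both libraries. The normal cholangiocyte-like and the fibrosis mesothelial-like and PF-like levels of Lama4 lay under the erythroid-like 0.910 in normal and 0.751 in fibrosis cells.

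Lama2, the alpha chain of muscle and mesenchymal basement membranes, was a gene of PF-like and HSC/MF-like cells. PF-like cells had 2.39 (1.91 to 2.96) UMIs per 10000 in the normal and 1.90 (1.67 to 2.15) in the fibrosis library, and with 0.861% of all normal UMIs they held 66.9% of the 127 normal Lama2 UMIs. HSC/MF-like cells had 0.326 (0.178 to 0.548) in normal and 1.21 (1.04 to 1.40) in fibrosis cells, a ratio of 3.72 (2.16 to 6.94) that rests on 14 normal UMIs and was 6.47 without the 3 cells with most UMIs. The PF-like and HSC/MF-like levels thus lay closer together in the fibrosis library than in the normal one. In portal vessel-like, zone 1-like, zone 2/3-like and central vein-like cells no Lama2 UMI was found in the normal library, which at a floor of 3 counts allows levels of up to 0.0117, 0.0197, 0.00842 and 0.0262, and in fibrosis cells these classes had between 0.00890 and 0.0263, all under the lymphoid 0.0629. Lama2 was thus not detectable above the lymphoid level in any endothelial class.

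Lama5, the alpha chain of epithelial and vessel basement membranes, was highest in mesothelial-like cells and followed in cholangiocyte-like and portal vessel-like cells. Mesothelial-like cells had 1.11 (0.853 to 1.43) in normal and 1.10 (0.889 to 1.34) in fibrosis cells, the latter interval just reaching that of cholangiocyte-like cells. Cholangiocyte-like cells had 0.595 (0.513 to 0.687) and 0.755 (0.634 to 0.893), and portal vessel-like cells 0.588 (0.498 to 0.689) and 0.599 (0.494 to 0.719), neighbours in the order whose intervals overlap. With the 5% mitochondrial limit the cholangiocyte-like ratio of 1.27 turned to 0.408, the portal vessel-like ratio of 1.02 came to 1.55 and the zone 1-like ratio of 0.984 to 1.5. LSEC-like cells were lower, at 0.306 (0.269 to 0.346) and 0.309 (0.272 to 0.348), and lymphoid cells had 0.0809 and 0.145. Portal vessel-like over LSEC-like, the ratio of Lama5 was 1.92 (1.56 to 2.36) in normal and 1.94 (1.54 to 2.43) in fibrosis cells. PF-like cells, with 4 normal and 56 fibrosis UMIs, were under the level filter described below.

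**Figure D2:**
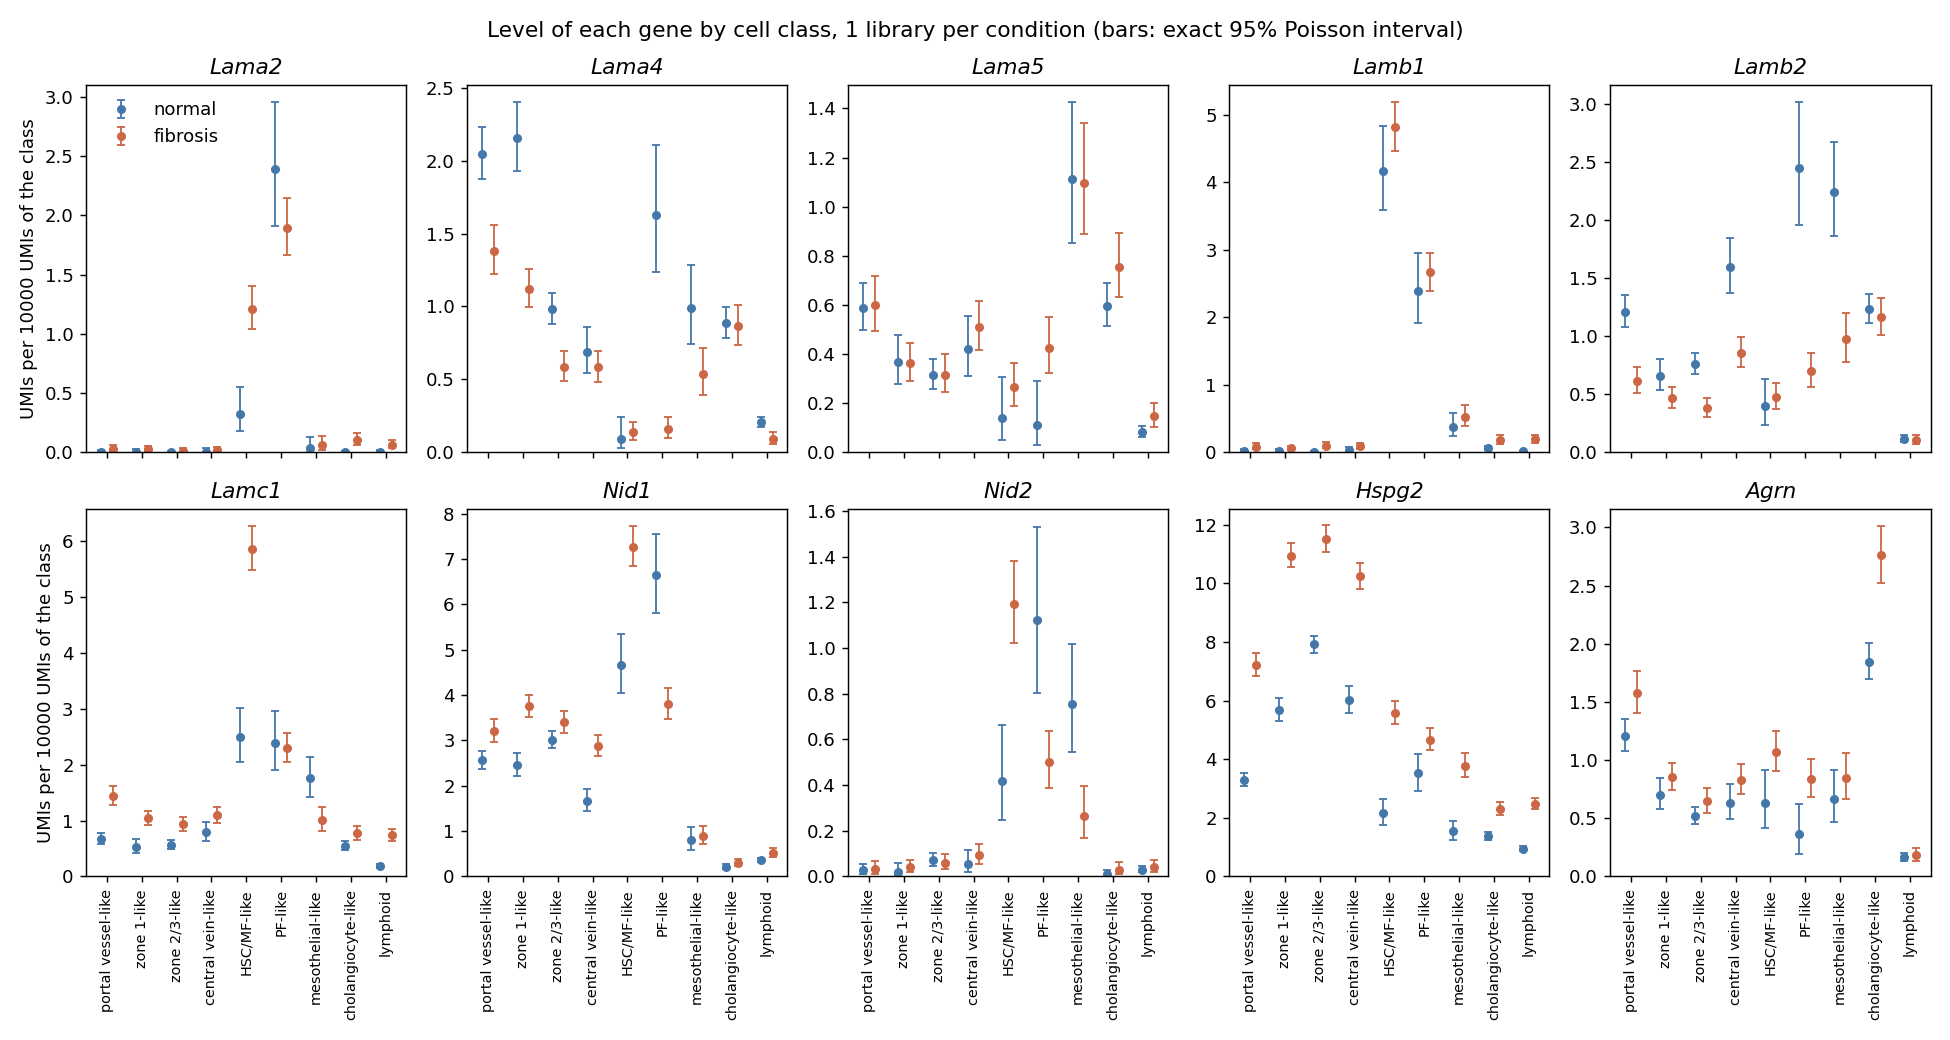
Levels of the 10 members in UMIs per 10000 UMIs of the class (vertical axes, linear scale from 0) in each cell class and in lymphoid cells (horizontal axes), 1 panel per member, with the normal and fibrosis libraries as separate points and bars for the exact 95% Poisson interval. Lamb1 is highest in HSC/MF-like cells at 4.17 and 4.82, and Agrn in cholangiocyte-like cells at 1.85 and 2.76.

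Of the beta chains, Lamb1 was largely mesenchymal and Lamb2 was spread over many classes, with PF-like cells holding both. Lamb1, the beta chain of many developing and mesenchymal basement membranes, was at 4.17 (3.58 to 4.83) UMIs per 10000 in normal and 4.82 (4.47 to 5.19) in fibrosis HSC/MF-like cells, and at 2.39 (1.91 to 2.96) and 2.66 (2.39 to 2.96) in PF-like cells. Neither ratio, 1.15 (0.979 to 1.37) and 1.11 (0.877 to 1.43), had an interval that excluded 1. Mesothelial-like cells had 0.377 (0.233 to 0.576) and 0.526 (0.385 to 0.702). In the 4 endothelial classes Lamb1 was between 0.00842 and 0.0262 in the normal and between 0.0557 and 0.0979 in the fibrosis library, where lymphoid cells had 0.0113 and 0.193. Endothelial Lamb1 was therefore not above the lymphoid level in the fibrosis library, and its higher value there is not read as expression.

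Lamb2, the beta chain of mature vessel and epithelial basement membranes, had lower levels per 10000 UMIs in the fibrosis library in PF-like, mesothelial-like and endothelial cells. PF-like cells went from 2.45 (1.96 to 3.02) in normal to 0.698 (0.563 to 0.856) in fibrosis cells, a ratio of 0.285 (0.211 to 0.387), and mesothelial-like cells from 2.24 (1.87 to 2.67) to 0.972 (0.776 to 1.20), a ratio of 0.433 (0.325 to 0.575). In central vein-like cells the levels were 1.60 (1.38 to 1.85) and 0.858 (0.736 to 0.994), in portal vessel-like cells 1.21 (1.08 to 1.35) and 0.615 (0.508 to 0.736), and in zone 2/3-like cells 0.760 (0.673 to 0.857) and 0.378 (0.302 to 0.468). These 3 endothelial ratios were 0.537, 0.508 and 0.498, and that of zone 1-like cells was 0.708 (0.538 to 0.934). Counted per cell, the ratio stayed at least 1.5-fold lower in PF-like (0.582), mesothelial-like (0.623), zone 2/3-like (0.617) and portal vessel-like cells (0.651), but not in LSEC-like (0.872), central vein-like (0.806) or zone 1-like cells (0.993). With the 5% mitochondrial limit it was 0.674 in LSEC-like and 1.06 in zone 1-like cells. Cholangiocyte-like cells, at 1.24 (1.12 to 1.36) and 1.16 (1.01 to 1.33), and HSC/MF-like cells, at 0.396 (0.231 to 0.634) and 0.474 (0.370 to 0.599), had ratio intervals that included 1. Both vessel classes exceeded LSEC-like cells, central vein-like by 2.29 (1.93 to 2.71) and portal vessel-like by 1.73 (1.5 to 1.99) times in the normal library, and by 1.98 (1.64 to 2.37) and 1.42 (1.14 to 1.75) times in the fibrosis library. Lymphoid cells had 0.116 and 0.102, a ratio of 0.878 (0.538 to 1.39) from 72 and 26 UMIs.

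Lamc1, the gamma chain that most laminins share, was highest in HSC/MF-like cells of the fibrosis library. It was 2.49 (2.04 to 3.01) UMIs per 10000 in normal and 5.87 (5.48 to 6.27) in fibrosis HSC/MF-like cells, a ratio of 2.35 (1.92 to 2.90). Of these cells 8.47% of the normal and 35.5% of the fibrosis ones had a Lamc1 UMI after thinning to 1000 UMIs, or 69.5% and 88.4% without thinning. In lymphoid cells, of which 1618 and 843 were deep enough for thinning, the shares were 1.55% and 6.76% after it and 5.99% and 19.7% before. The ratio was 3.85 at a Leiden resolution of 1.5. PF-like cells differed little, at 2.39 (1.91 to 2.96) and 2.29 (2.04 to 2.57), while mesothelial-like cells were lower in the fibrosis library, at 1.76 (1.43 to 2.14) and 1.01 (0.807 to 1.24), a ratio of 0.572 (0.424 to 0.771) that came to 0.168 with the lymphoid level described next taken away, to 0.823 per cell and to 0.740 with the 5% mitochondrial limit.

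Lamc1 in endothelium has to be read beside its lymphoid level, which was 0.189 (0.156 to 0.227) in normal and 0.743 (0.641 to 0.857) in fibrosis cells, a ratio of 3.93 (3.10 to 4.99). LSEC-like cells had 0.484 (0.438 to 0.535) and 0.989 (0.924 to 1.06), a ratio of 2.04 (1.81 to 2.31), and portal vessel-like cells 0.677 (0.580 to 0.785) and 1.44 (1.28 to 1.63), a ratio of 2.13 (1.76 to 2.59). With the lymphoid level taken from each library first, the ratio of LSEC-like cells turned to 0.834, that of zone 1-like cells to 0.871 and that of zone 2/3-like cells to 0.496. Portal vessel-like cells then had 1.44, which is within 1.5-fold, and the ratios of 1.39 in central vein-like and 1.42 in cholangiocyte-like cells came to 0.590 and 0.0811. With the 5% mitochondrial limit in place of this subtraction, the ratios of these 2 classes rose to 1.64 and 2.38. Which part of the lymphoid Lamc1 came from free RNA and which from lymphocytes was not tested, so no direction is read for Lamc1 in the endothelial or cholangiocyte-like classes. The fibrosis mesothelial-like level also lay under that of erythroid-like cells. In HSC/MF-like cells the fibrosis level of 5.87 was above both.

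The nidogens link laminin to collagen IV, and Nid1 was above its lymphoid level in all endothelial and mesenchymal classes. In mesothelial-like cells it was lowest of these, at 0.807 (0.589 to 1.08) and 0.892 (0.705 to 1.11), under the erythroid-like 1.18 and 2.18. In HSC/MF-like cells it was 4.66 (4.04 to 5.35) UMIs per 10000 in normal and 7.27 (6.84 to 7.72) in fibrosis cells, a ratio of 1.56 (1.34 to 1.82). PF-like cells showed the opposite order, at 6.64 (5.82 to 7.54) and 3.80 (3.48 to 4.15), a ratio of 0.573 (0.490 to 0.672) that became 1.17 when UMIs were counted per cell and 0.879 with the 5% mitochondrial limit. Normal PF-like cells thus stood above normal HSC/MF-like cells, and fibrosis PF-like cells below fibrosis HSC/MF-like cells. In endothelium Nid1 was 2.45 (2.21 to 2.71) and 3.75 (3.52 to 4.0) in zone 1-like cells, 3.01 (2.83 to 3.20) and 3.40 (3.16 to 3.65) in zone 2/3-like cells, 2.56 (2.37 to 2.76) and 3.21 (2.96 to 3.47) in portal vessel-like cells, and 1.67 (1.44 to 1.92) and 2.88 (2.66 to 3.13) in central vein-like cells. The central vein-like class was the lowest of the 4 in the normal library, while in the fibrosis library it was not apart from portal vessel-like cells. The 8 central vein markers of this class summed to 130 UMIs per 10000 in normal and 73.6 in fibrosis cells, and Stab2, a gene of sinusoidal endothelium, was at 0.668 and 2.95 in its 2 normal groups and 7.68 in fibrosis cells. The part of these markers in the central vein-like values was not tested. Portal vessel-like over central vein-like, the ratio was 1.53 (1.30 to 1.81) in normal and 1.11 (0.992 to 1.2) in fibrosis cells. Cholangiocyte-like cells, at 0.214 and 0.300, lay under the lymphoid 0.354 and 0.519.

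Nid2 was much rarer, with 348 normal and 930 fibrosis UMIs in all. In HSC/MF-like cells it was 0.420 (0.249 to 0.663) in normal and 1.19 (1.02 to 1.38) in fibrosis cells, a ratio of 2.84 (1.75 to 4.91) that rests on 18 normal UMIs. In PF-like cells it was 1.12 (0.803 to 1.53) and 0.501 (0.387 to 0.637), a ratio of 0.445 that became 0.908 per cell. In mesothelial-like cells it was 0.753 (0.543 to 1.02) and 0.263 (0.167 to 0.395), a ratio of 0.349 that became 0.143 with the 5% mitochondrial limit. HSC/MF-like cells were therefore below PF-like cells in the normal library, with an interval that overlapped that of mesothelial-like cells, and above both in the fibrosis library. The 4 endothelial classes had between 0.0197 and 0.0921 in both libraries, beside lymphoid levels of 0.0291 and 0.0393.

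Of the proteoglycans, Hspg2, whose product perlecan carries heparan sulfate chains, was above its lymphoid level in every endothelial class and at a higher level in the fibrosis library in each. LSEC-like cells had 7.39 (7.21 to 7.58) UMIs per 10000 in normal and 11.6 (11.3 to 11.8) in fibrosis cells, a ratio of 1.56 (1.51 to 1.61). Zone 1-like cells had 5.69 (5.32 to 6.08) and 11.0 (10.5 to 11.4), zone 2/3-like cells 7.92 (7.63 to 8.22) and 11.5 (11.1 to 12.0), central vein-like cells 6.02 (5.58 to 6.49) and 10.2 (9.82 to 10.7), and portal vessel-like cells 3.30 (3.08 to 3.53) and 7.22 (6.85 to 7.61). The 2 zones were apart in the normal library and close in the fibrosis library. Zone 1-like over zone 2/3-like, the ratio was 0.719 (0.665 to 0.776) in normal and 0.95 (0.900 to 1.0) in fibrosis cells, and portal vessel-like over central vein-like it was 0.547 (0.494 to 0.606) and 0.705 (0.658 to 0.755). In portal vessel-like cells Stab2 moved with this, at 2.85 and 1.27 in the 2 normal groups and 6.36 and 2.40 in the 2 fibrosis groups, whose Hspg2 was 7.76 and 5.74, and the 16 endothelial markers summed to 154 and 190, whose part was not tested. The portal vessel-like Hspg2 lay under that of erythroid-like cells in both libraries. Lymphoid Hspg2 was also higher in the fibrosis library, at 0.949 (0.874 to 1.03) and 2.48 (2.29 to 2.69). With the lymphoid level taken from each library first, the Hspg2 ratio was 1.41 in LSEC-like, 1.79 in zone 1-like and 1.30 in zone 2/3-like cells. It was 1.53 in central vein-like and 2.02 in portal vessel-like cells, so above 1 in each class. In LSEC-like cells no member was then at least 1.5-fold higher, while Lamb2 was at 0.571, still past 1.5-fold lower, and Lama4 at 0.697, within it. The erythroid-like Hspg2 level, 3.79 in normal and 8.44 in fibrosis cells, was above the lymphoid one. It was not taken away, so no direction over that level is given for endothelial Hspg2.

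After thinning to 1000 UMIs, 52.0% of normal and 66.0% of fibrosis LSEC-like cells had an Hspg2 UMI, against 6.80% and 21.7% of lymphoid cells, and without thinning the LSEC-like shares were 95.4% and 98.9%. Outside the endothelium Hspg2 was 2.17 (1.75 to 2.66) in normal and 5.58 (5.20 to 5.97) in fibrosis HSC/MF-like cells, a ratio of 2.57 (2.07 to 3.22), and 3.51 (2.93 to 4.19) and 4.67 (4.31 to 5.05) in PF-like cells, where the ratio of 1.33 turned to 0.851 with the lymphoid level taken away. Mesothelial-like cells had 1.54 (1.23 to 1.91) and 3.78 (3.39 to 4.21), a ratio of 2.45 (1.93 to 3.15). The fibrosis levels of these 3 classes lay at or under those of neutrophil-like and erythroid-like cells, so the differences are not read as expression from the levels alone. Counted per cell, fibrosis PF-like cells held 7.69 Hspg2 UMIs, mesothelial-like cells 6.90 and HSC/MF-like cells 6.80, against 0.747 in lymphoid, 1.37 in neutrophil-like and 1.65 in erythroid-like ones. These classes differed in median depth, at 14537.5, 16072.5 and 11421 UMIs against 2543.5, 1728.5 and 1078. Deeper fibrosis monocyte/macrophage-like cells, with a median of 10508 UMIs, held 1772 Hspg2 UMIs in 853 cells. The part of depth in the counts per cell was not tested. Cholangiocyte-like cells had 1.38 (1.26 to 1.52) and 2.30 (2.08 to 2.53), of which the fibrosis value was not above the lymphoid level, so their ratio of 1.66 (1.45 to 1.91) is not read as a difference in these cells.

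Agrn, which encodes a laminin-binding proteoglycan also known from the neuromuscular junction, was highest in cholangiocyte-like cells, at 1.85 (1.70 to 2.0) in normal and 2.76 (2.52 to 3.01) in fibrosis cells, a ratio of 1.49 (1.32 to 1.69). Among the endothelial classes it was highest in portal vessel-like cells, at 1.21 (1.08 to 1.35) and 1.58 (1.40 to 1.76), which was 1.92 (1.48 to 2.52) and 1.90 (1.57 to 2.31) times the central vein-like level. Zone 1-like cells had 0.703 and 0.855 and zone 2/3-like cells 0.519 and 0.645, so the portal side was the higher one between zones as well, by 1.35 (1.06 to 1.73) and 1.32 (1.07 to 1.65) times. HSC/MF-like cells had 0.629 (0.415 to 0.916) and 1.07 (0.910 to 1.3), and PF-like cells 0.366 (0.195 to 0.625) and 0.835 (0.686 to 1.01). The lymphoid level, at 0.167 and 0.185, hardly differed between the libraries. Erythroid-like cells, however, had Agrn at 0.311 in normal and 0.715 in fibrosis cells, and neutrophil-like cells at 0.233 and 0.625. The fibrosis zone 2/3-like level lay under the erythroid-like one. How much of the higher fibrosis Agrn values came from free RNA was not tested.

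Counted by class, members were called higher or lower where the libraries differed by at least 1.5-fold and the mean of both levels was at least 0.5 UMIs per 10000. A gene can thus pass through 1 library alone. In the normal library Lama2 (0.326) and Nid2 (0.420) of HSC/MF-like and Agrn (0.366) of PF-like cells, among others, were under 0.5. In HSC/MF-like cells 7 members passed this filter and 6 were higher in the fibrosis library (Lama2, Lamc1, Nid1, Nid2, Hspg2 and Agrn), where 16.3% of all genes that passed were higher, and none was lower, where 13.1% of genes were. Their median ratio was 2.35, beside 1.02 for all genes that passed. The 14 PF markers, of which 6 were at 0 in normal and 2 in fibrosis HSC/MF-like cells, summed to 3.61 and 10.2 UMIs per 10000 in this class and its own 15 HSC/MF markers to 193 and 110, and their part in these ratios was not tested. PF-like cells showed the reverse balance, with 1 of 9 higher (Agrn) against 21.2% of genes and 4 lower (Lama4, Lamb2, Nid1 and Nid2) against 17.0%, and a median ratio of 0.794 beside 1.05. These counts rest on the scaling. Counting per cell multiplies the ratio of every gene in a class by 1 factor, from 1.24 in zone 2/3-like to 2.04 in PF-like cells. Shares of all genes were counted per 10000 UMIs only. Counts per cell, with the lymphoid level subtracted or at the 5% mitochondrial limit thus have no background. They are not read as results about the members. Per cell, 5 of the 9 were higher in PF-like cells (Lama2, Lamb1, Lamc1, Hspg2 and Agrn) and 2 lower (Lama4 and Lamb2). Lamb1 was within 1.5-fold in both mesenchymal classes per 10000 UMIs, while per cell its ratio was 1.94 in HSC/MF-like and 2.27 in PF-like cells. All 7 members that passed in HSC/MF-like cells were higher per cell, where the factor for every gene was 1.68. Mesothelial-like cells had 1 of 8 higher (Hspg2) against 20.3% and 4 lower (Lama4, Lamb2, Lamc1 and Nid2) against 15.4%, which per cell became 3 higher and 2 lower, with Lama4 at 0.783 and Lamc1 at 0.823. In LSEC-like cells 2 of 6 were higher (Lamc1 and Hspg2) against 8.64% and 2 lower (Lama4 and Lamb2) against 6.40%. Per cell, with a factor of 1.40 for every gene, these became 4 higher and 0 lower. Lamc1, for which no direction is read in endothelium, is among the members counted as higher in LSEC-like, zone 1-like, zone 2/3-like and portal vessel-like cells. Hspg2 is likewise counted as higher in HSC/MF-like, mesothelial-like and cholangiocyte-like cells, though its differences there are not read as expression in these classes. With the lymphoid level subtracted the members at least 1.5-fold higher were 0 in LSEC-like, 2 in zone 1-like and 0 in zone 2/3-like cells. Lamb2 was among the lower members in the LSEC-like, zone 2/3-like, portal vessel-like and central vein-like classes. Zone 1-like cells had 3 of 6 higher against 10.2% and 1 lower against 8.00%, and zone 2/3-like cells had 1 of 6 higher against 8.73% and 2 lower against 6.54%. Per cell these became 4 higher and 0 lower in zone 1-like and 3 higher and 1 lower in zone 2/3-like cells. The factor for every gene was 1.40 in zone 1-like and 1.24 in zone 2/3-like cells. With no share of all genes per cell, these counts do not set the members apart from other genes. Portal vessel-like cells had 2 of 7 higher against 12.3% and 1 lower against 8.73%. Central vein-like cells had 2 of 6 higher against 17.2% and 1 lower against 11.0%, in a class whose median gene ratio was itself shifted by 0.11 on the log2 scale. Per cell, portal vessel-like cells had 4 higher and 1 lower and central vein-like cells 4 higher and 0 lower. In central vein-like cells the factor for every gene was itself above 1.5, so a gene with equal levels per 10000 UMIs would be called higher. No share of all genes per cell was counted in either class, so these counts do not set the members apart. With the 5% mitochondrial limit Lama4 (1.88), Lamc1 (1.64), Nid1 (2.55), Hspg2 (1.52) and Agrn (2.44) of central vein-like cells all reached 1.5-fold higher. Cholangiocyte-like cells had 1 of 6 higher (Hspg2) against 7.59% and none lower against 5.89%, and in lymphoid cells the 1 member that passed, Hspg2, was higher, against 18.0% of genes higher and 9.02% lower.

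**Figure D3:**
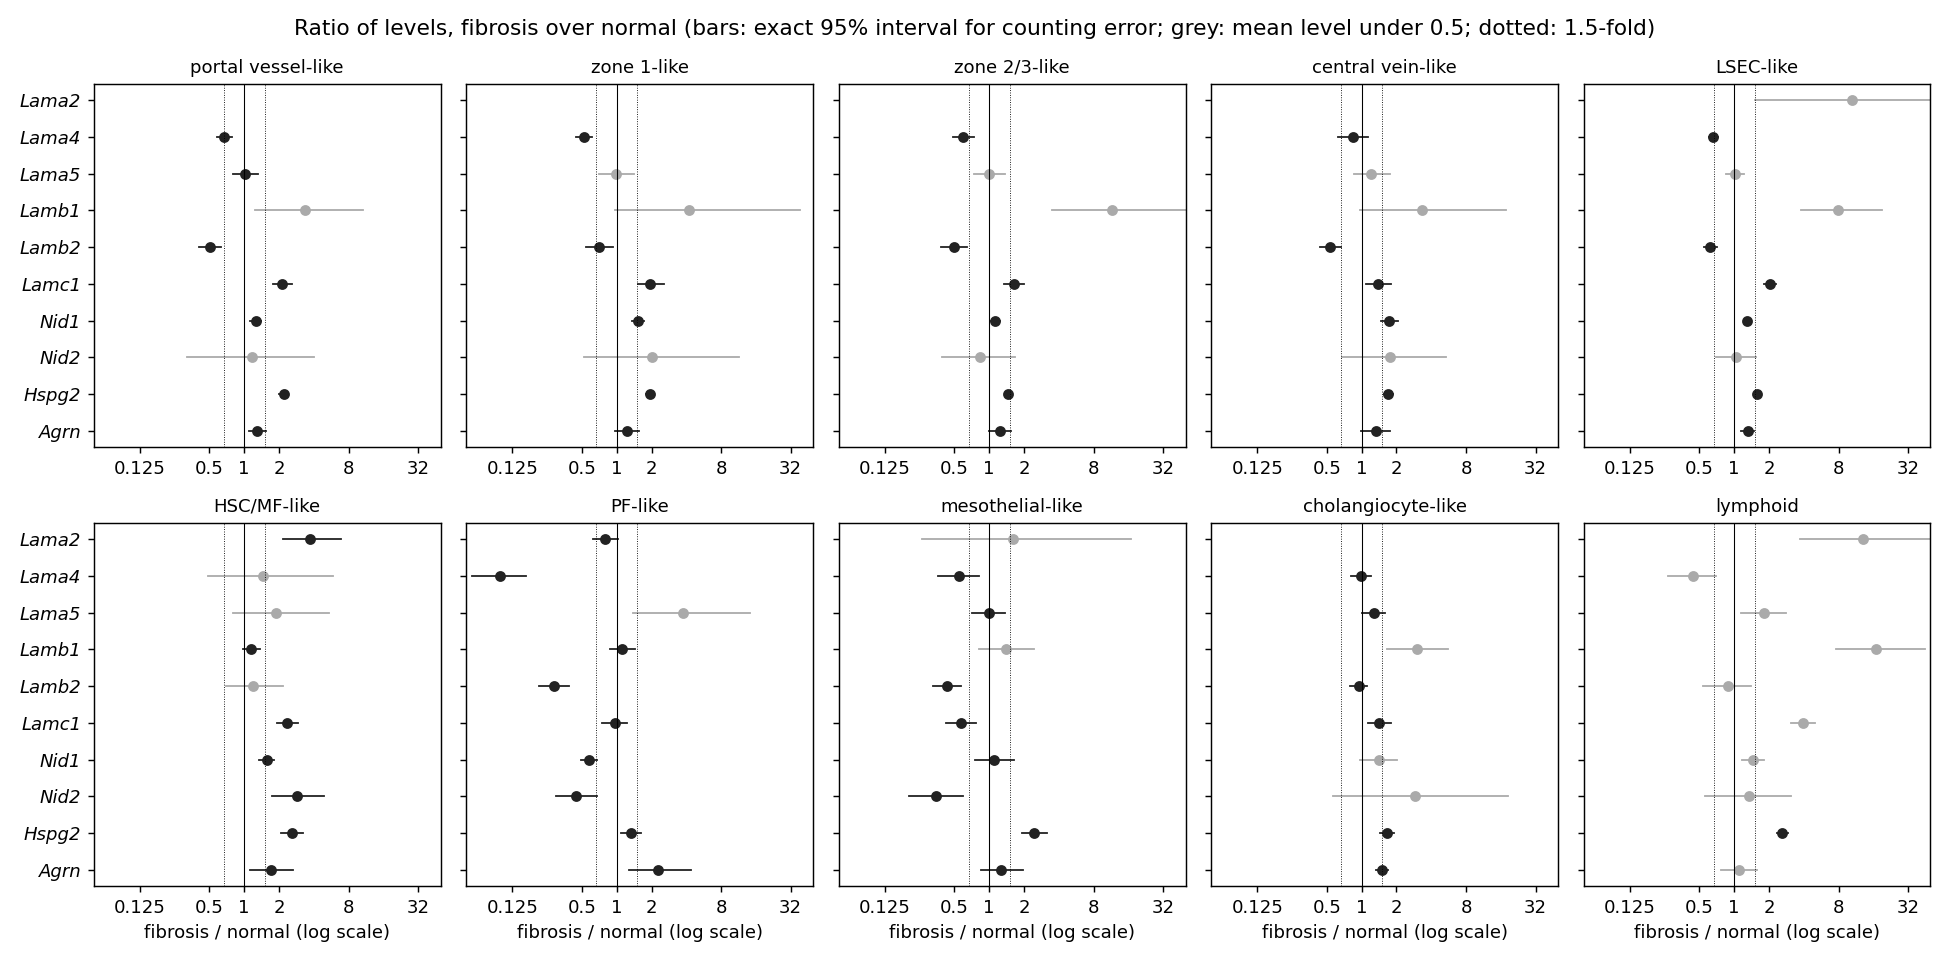
Ratio of the fibrosis over the normal level (horizontal axes, log scale) of each member in each cell class, with exact 95% binomial intervals as bars that are clipped at 0.05 and 50, grey points for members with a mean level under 0.5 UMIs per 10000, and no point where a library had no UMI. Dotted lines mark 1.5-fold in either direction. Of the members over that filter, 6 lie at or above 1.5 in HSC/MF-like cells, while 4 each lie at or below its inverse in PF-like and mesothelial-like cells.

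The fibrosis HSC/MF-like class was made of 2 groups of cells, which shared the higher levels. The first, 64 cells with a Col1a1 level of 106 UMIs per 10000, had Lamc1 at 5.23, Lamb1 at 4.56, Nid1 at 7.21, Hspg2 at 5.82 and Nid2 at 1.19. The second, 57 cells with Col1a1 at 10.8, had Lamc1 at 7.85, Lamb1 at 5.63, Nid1 at 7.46, Hspg2 at 4.82 and Nid2 at 1.20. The 59 normal cells had a Col1a1 level of 2.14, and Lamc1, Nid1, Nid2 and Hspg2 stood above their normal levels in both groups. For Hspg2 this is not read as expression, as stated above for this class. Normal HSC/MF-like cells took no name under 3 of the alternative settings, so every ratio of this class rests on the 59 cells named here. A further 132 fibrosis cells with mesenchymal and endothelial markers together and 62 with markers of other cells were left out, as were 41 normal cells of the latter kind. Mesenchymal sub-clusters of 60, 41 and 30 fibrosis and 22 normal cells stayed unnamed, and all unnamed cells together held 30.1% of the fibrosis Lamb1 and 20.7% of the fibrosis Lamc1 UMIs. In the unnamed group of 60, with Col1a1 at 81.3, Lamb1 was at 3.38 and Lamc1 at 3.51, below both fibrosis HSC/MF-like groups.

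As shares of the laminin UMIs of each chain type, which compare classes and not amounts of protein, the chains differed between classes. Lama1, a chain best known from embryonic basement membranes and not among the 10 members, took 81.0% (73.0 to 87.4) of alpha chain UMIs in normal and 59.1% (55.0 to 63.1) in fibrosis HSC/MF-like cells, while Lama2 took 11.1% (6.21 to 17.9) and 30.5% (26.8 to 34.4). The level of Lama1 was 2.38 UMIs per 10000 in normal and 2.35 in fibrosis HSC/MF-like cells, but the latter joins 1.58 in the group of 64 cells and 4.76 in the group of 57. Lama2 stood at 1.23 and 1.17 in these groups, both above its normal 0.326. Lamb1 took 90.9% and 90.8% of beta chain UMIs in these cells, whereas Lamb2 took between 97.8% and 98.2% in the normal endothelial classes and between 79.4% and 90.8% in the fibrosis ones. The fibrosis endothelial shares include Lamb1 UMIs that lay below the lymphoid level, so their difference from the normal shares is not read as a change of chain. PF-like cells held both, with Lamb1 at 49.4% (41.7 to 57.1) in normal and 77.5% (73.4 to 81.2) in fibrosis cells. In mesothelial-like cells the gamma chains differed most between the libraries, with Lamc1 at 78.4% (70.2 to 85.3) in normal and 29.7% (24.6 to 35.3) in fibrosis cells and Lamc3, a gamma chain of more restricted expression, at 5.60% (2.28 to 11.2) and 67.9% (62.3 to 73.2).

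**Figure D4:**
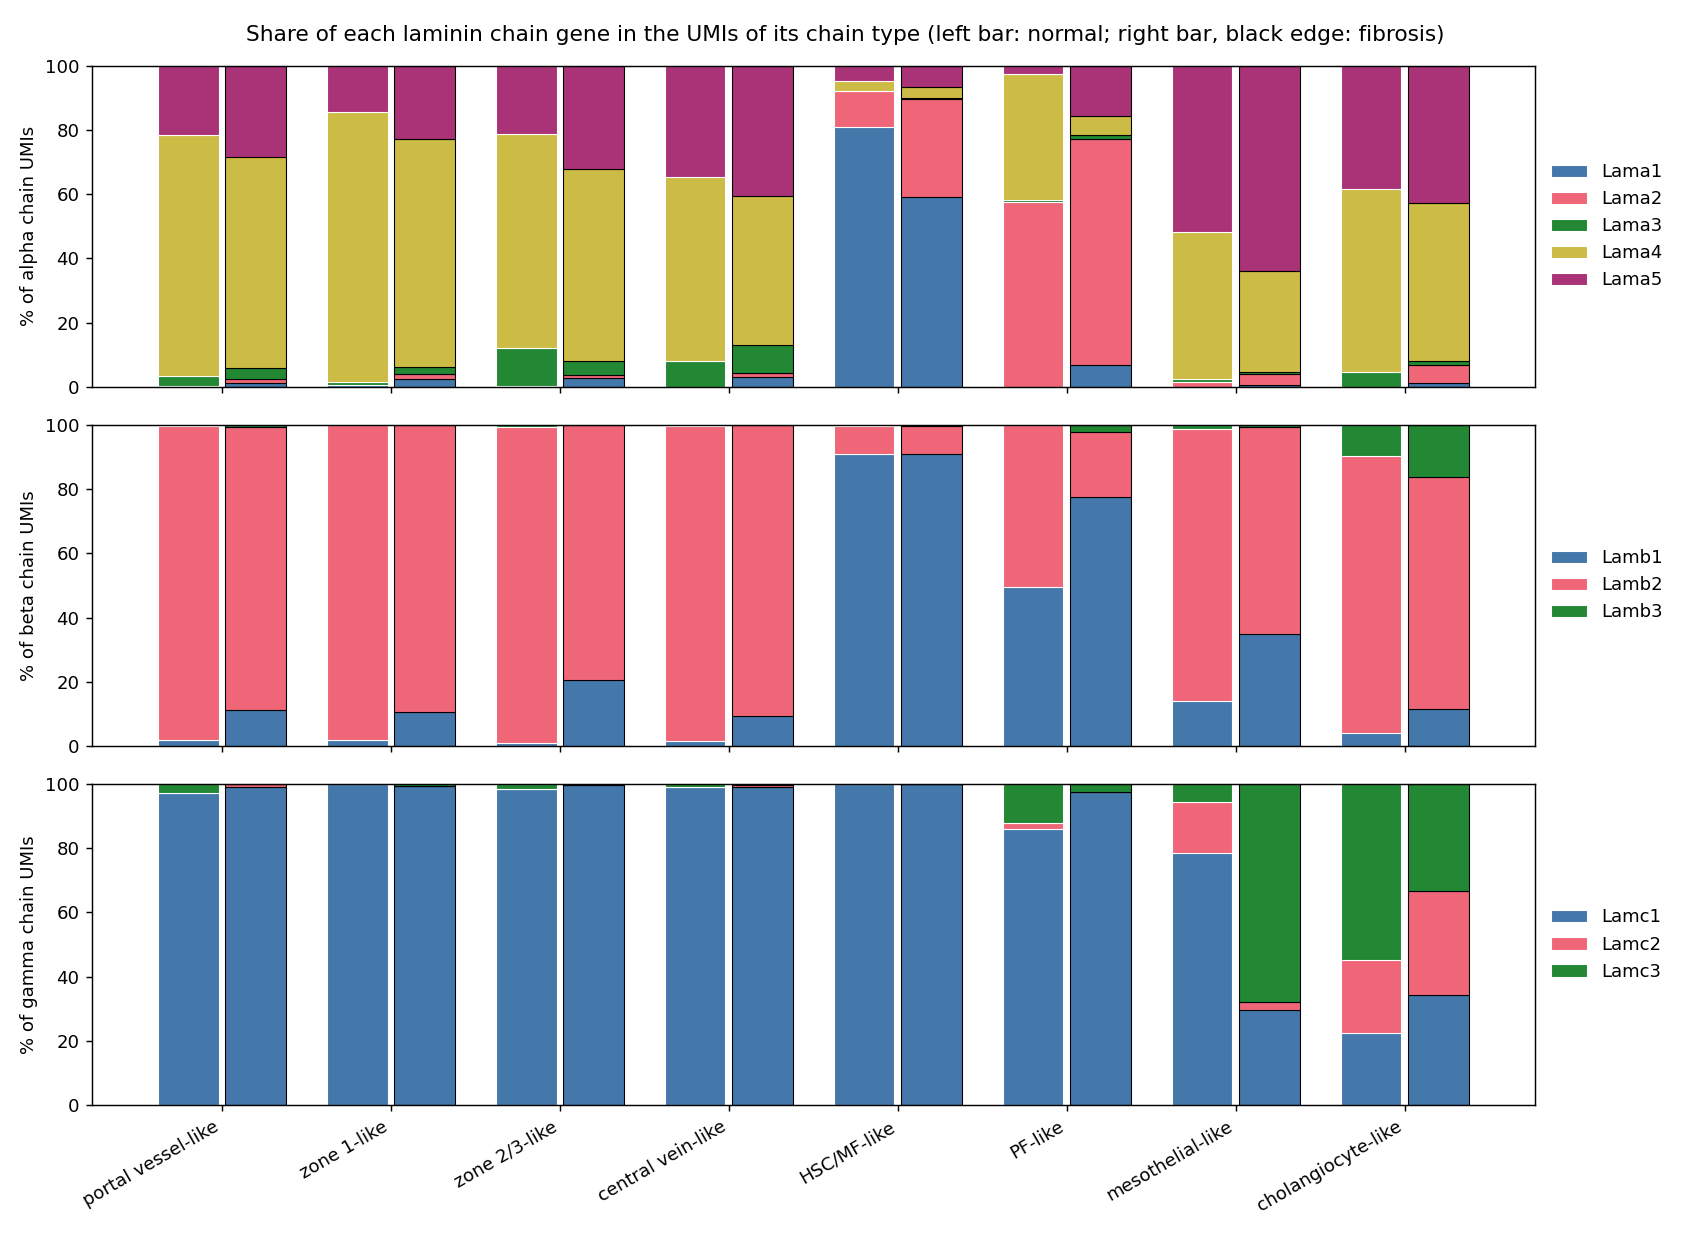
Shares of the UMIs of each laminin chain type (alpha, beta and gamma, in percent, vertical axes) taken by each chain gene in each cell class, as stacked bars for the normal and fibrosis libraries. Lama1 fills 81.0% and 59.1% of the alpha bars of HSC/MF-like cells, and Lamc3 fills 67.9% of the gamma bar of fibrosis mesothelial-like cells.

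Of 37 further basement membrane genes, 11 passed the level filter in HSC/MF-like cells, where 6 were higher and 1 lower in the fibrosis library against 16.3% and 13.1% of all genes, and 10 passed in LSEC-like cells, where 4 were higher and 0 lower against 8.64% and 6.40%. Col4a1, a chain of the collagen IV network to which the nidogens bind laminin, was 7.18 in normal and 32.4 in fibrosis HSC/MF-like cells, a ratio of 4.52 (4.02 to 5.09), and 6.45 and 13.6 in LSEC-like cells, a ratio of 2.11 (2.04 to 2.18), beside 0.687 and 2.33 in lymphoid cells. Each of these Col4a1 ratios exceeded the Hspg2 ratio of the same class. Erythroid-like cells had Col4a1 at 2.58 in normal and 8.47 in fibrosis cells, and neutrophil-like cells at 1.28 and 5.42. How much of the Col4a1 levels came from free RNA was not tested. In PF-like cells 17 passed, of which 11 were higher and 5 lower against 21.2% and 17.0%, and Col4a1 at 4.50 and 25.9 differed in the opposite direction to Nid1. Mesothelial-like cells had 20 that passed, 6 higher and 4 lower against 20.3% and 15.4%, shares of the list not far from those of all genes, including Lamc3 at 0.126 and 2.30 with a ratio of 18.3 (8.72 to 46.1) and the laminin receptor gene Bcam at 13.8 and 4.02 with a ratio of 0.291 (0.256 to 0.330). Cholangiocyte-like cells had 18 that passed, 6 higher and 2 lower against 7.59% and 5.89%, with Lamc3 at 1.33 and 0.750 among the lower ones.

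Over 18 classes with both libraries joined, the patterns most like each member among 8003 genes were those of Mfap2 for Lama2 (Pearson r 0.994), Tm4sf1 for Lama4 (0.945), Ptpn14 for Lama5 (0.965), Angptl2 for Lamb1 (0.992), Npdc1 for Lamb2 (0.962), Bgn for Lamc1 (0.964), Pxdn for Nid1 (0.983), Pde3a for Nid2 (0.957), Cdr2l for Hspg2 (0.977) and Map4k3 for Agrn (0.948). Within the 10 members Lama5 and Lamb2 were most alike (0.958), and Lama2 and Lamb1 followed (0.945). These values describe log2(UMIs per 10000 + 0.1) over classes that share libraries and depth.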

How the data were processed

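Per the labels and the study's methods, the authors prepared 1 library per mouse on the 10x Chromium platform and made UMI counts per gene and cell with Cell Ranger 3.0.1 against mm10, and both deposited matrices hold these raw counts. Cells with under 10% mitochondrial UMIs and over 200 genes were kept here. Each library was clustered on its own with scanpy 1.11.5 (2000 variable genes without the members or the basement membrane list, 10 principal components, 20 neighbours, Leiden resolution 0.8), and endothelial and mesenchymal cells were clustered again. A cluster took the name of a marker list when at least 3 of its markers were raised and its score, the raised share plus 0.1 for each marker among the 10 top genes, reached 0.5. Markers counted as raised past 2-fold in a whole library, 1.25-fold among endothelial and 1.5-fold among mesenchymal sub-clusters, limits set after the clusters had been seen. The study's methods state that doublets were tested for and excluded with Scrublet. Scrublet marked 3 normal and 0 fibrosis cells here, and no cell was removed by it. The members, lists and naming rules were chosen with earlier results of these data known. All 10 members were named, as were list genes with a level of at least 0.5 UMIs per 10000 in a main class and, for likeness, the 3 most correlated genes of each member. For shares of cells with a UMI, each cell was thinned to 1000 UMIs. No test was run, since each condition was 1 library. Ratios and intervals were checked on simulated counts. Alternatives covered clustering, filters, scaling, thinning and the lymphoid level.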

Additional observations from a re-analysis of the deposited data

Results flagged for a closer look

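The ratio of fibrosis over normal went in opposite directions in different cell classes for 3 members, and these differences between classes were not tested, since each condition was 1 library. Lamc1 had its highest called ratio, 2.35, in HSC/MF-like and its lowest, 0.572, in mesothelial-like cells, where it was 0.823 per cell and 0.740 with a mitochondrial limit of 5%, both within 1.5-fold. Nid1 had its highest called ratio, 1.73, in central vein-like and its lowest, 0.573, in PF-like cells, where it was 1.17 per cell. Nid2 had its highest called ratio, 2.84, in HSC/MF-like cells, from 18 normal UMIs, and its lowest, 0.349, in mesothelial-like cells, where it was 0.143 with a mitochondrial limit of 5%.

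A signal was also seen in a class outside the comparisons. Nid2 was at 0.204 (0.153 to 0.267) UMIs per 10000 in normal Kupffer-cell-like cells, from 53 UMIs, and at 0.113 (0.0787 to 0.157) in fibrosis ones, beside 0.0291 and 0.0393 in lymphoid cells. Erythroid-like cells had Nid2 at 0.0513 and 0.128, so the fibrosis Kupffer-cell-like level was not above theirs. The other nidogen, Nid1, was not above its lymphoid level in Kupffer-cell-like cells, at 0.177 and 0.387 beside 0.354 and 0.519.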

How the results depend on the processing

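No paired analysis was possible because each condition is 1 library. Of 813 ratios recomputed under 10 alternatives, 675 stayed within the interval of the value reported, 131 moved outside it and 7 reversed, and 747 kept their side of 1. Shares of all genes at least 1.5-fold higher or lower were not counted under these alternatives. The number of members at least 1.5-fold higher in the fibrosis library was 6 in HSC/MF-like cells, of which Nid1 (1.56) and Agrn (1.70) fell short of a fold of 2. It did not move by over 1.5 times where that class was found. In LSEC-like cells it went from 2 to 4 with rates per cell or with no filter on level, to 1 with median-of-ratios scaling or a fold of 2, and to 0 with the lymphoid level subtracted. In zone 1-like cells it went from 3 to 0 with a fold of 2 and to 5 with no filter. In zone 2/3-like cells it went from 1 to 2 without the highest 5% of doublet scores or with no filter, to 3 per cell, and to 0 with the lymphoid level subtracted or a fold of 2. In cholangiocyte-like cells it went from 1 to 0 with a mitochondrial limit of 5% or a fold of 2, to 2 without the highest doublet scores, and to 4 per cell or with no filter. In mesothelial-like cells it went from 1 to 2 with the mitochondrial limit of 5% or no filter and to 3 per cell. Lamc1 reversed with the lymphoid level subtracted, to 0.834 in LSEC-like, 0.871 in zone 1-like and 0.496 in zone 2/3-like cells. Hspg2 in cholangiocyte-like cells reversed to 0.547 with the mitochondrial limit of 5% and to 0 with the lymphoid level subtracted, which exceeded its fibrosis level. Lama4 in mesothelial-like cells came to 1.0 with the mitochondrial limit of 5%, and Nid1 in PF-like cells to 1.17 per cell, where fibrosis cells held 2.04 times the UMIs. Lama4 and Lama5 in cholangiocyte-like cells came to 0.253 and 0.408 with the mitochondrial limit of 5%. Per cell, the number of members at least 1.5-fold lower went from 2 to 0 in LSEC-like, from 4 to 2 in mesothelial-like and PF-like, from 2 to 1 in zone 2/3-like and from 1 to 0 in zone 1-like and central vein-like cells. Where no construction shows it, the cause was not tested. HSC/MF-like cells gave no value with the mitochondrial limit of 5%, without the highest doublet scores or with stricter limits for sub-cluster names, and zone 2/3-like cells gave none with the latter. That alternative, and those for portal vessel-like, central vein-like and PF-like cells, were chosen after seeing the data. Of 140 shares of cells with a UMI, 84 moved with thinning to 2000 UMIs and 124 without thinning.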
